A study of Mus musculus with 9 samples.

Results

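Wnt7a, Wnt7b and norrin are secreted ligands of the Wnt/β-catenin pathway in brain vessels, and 10 genes of their signalling were examined here in astrocyte polysomal RNA. The genes were chosen by symbol for their roles, with earlier results of these data known. They comprise the ligands (Wnt7a, Wnt7b, Ndp), the receptor Fzd4, the co-receptors Lrp5 and Lrp6, the accessory proteins Tspan12, Adgra2 and Reck, and the target gene Axin2. They are 10 of the 22092 genes to which the counted transcripts were matched, all 10 were found, and all 10 passed the filter on low counts, which left 14427 genes. Translating ribosome affinity purification (TRAP) pulls down ribosomes that carry a GFP-tagged protein together with the mRNAs attached to them. All libraries came from 2-month-old BAC transgenic Aldh1l1:L10a-eGFP mice (strain Aldh1L1 JD130), in which the Aldh1l1 promoter drives the tagged ribosomal protein L10a in astrocytes. Whole astrocyte TRAP was done on 3 brains, 1 per library, and endfeet TRAP on purified brain vessels, which keep the astrocyte endfeet attached to them, in 6 libraries of 8 pooled mice each. The comparison asked which of these mRNAs differed in level between ribosomes of the endfeet fraction and of whole astrocytes.

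In the textbook account, Wnt7a and Wnt7b from neural cells bind Frizzled receptors and LRP co-receptors on endothelial cells, and need Reck and Adgra2 (Gpr124) at the endothelial membrane for this. Norrin, the product of Ndp, is not a Wnt protein, yet it activates the same pathway through Fzd4 and Lrp5 with the help of Tspan12. Both routes stabilise β-catenin and are known for building and maintaining the blood-brain and blood-retina barriers.

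Gene totals were 35984144 to 43521208 counts in the whole astrocyte libraries and 2319495 to 13450588 in the endfeet libraries, and endfeet library 6 was the smallest. Library numbers place endfeet libraries 1 to 3 in a series of their own, apart from endfeet libraries 4 to 6 and the whole astrocyte libraries, and what the numbers mean is not stated. The labelled cell type was checked with marker genes. The summed level of 10 astrocyte markers was 23929 to 28141 CPM (counts scaled to a common library size by the TMM method) in whole astrocyte TRAP and 10085 to 30622 CPM in endfeet TRAP, a sum to which Slc1a2 contributed 8043 CPM and 15307 CPM on average. Of these 10 markers 4 were lower in endfeet TRAP, 1 was higher and 5 did not pass, with a median log2 fold change of -0.69, and Glul was at -3.26 (adjusted p = 4.47e-06). The sum of 8 neuron markers was 3446 to 4002 CPM against 978 to 1984 CPM, with 3 lower and none higher. The sum of 6 oligodendrocyte markers was 622 to 636 CPM against 217 to 554 CPM, with 1 lower and none higher. The sum of 6 oligodendrocyte precursor markers was 255 to 268 CPM against 117 to 225 CPM, with 2 lower and 2 higher. The lower astrocyte, neuron, oligodendrocyte and oligodendrocyte precursor markers moved in the same direction as Ndp and Wnt7b. Their part in those results was not tested. Endothelial markers were near 0 in whole astrocyte TRAP, with a sum over 10 genes of 5.66 to 7.78 CPM and Ly6c1 at 0 in all libraries, and reached 2717 to 3927 CPM in endfeet TRAP. The sum of 9 mural cell markers was 35.1 to 36.6 CPM against 3536 to 8029 CPM. All 10 endothelial and all 9 mural markers were higher in endfeet TRAP. The authors took out the choroid plexus before whole astrocyte extraction, and do not state this for the purified vessels. The sum of 4 choroid plexus markers was 46.1 to 1479 CPM against 6661 to 89262 CPM. Fibroblast markers (6.81 to 10.6 against 196 to 962 CPM, 4 of 5 higher), microglia and macrophage markers (15.9 to 19.2 against 77.9 to 162 CPM, 4 of 7 higher) and ependymal markers (20.8 to 26.7 against 36.1 to 228 CPM, 3 of 4 higher) were also above. These markers moved in the same direction as the receptor genes described below, and their part in those results was not tested. In such bulk samples, fewer cells of a type and less RNA per cell cannot be told apart.

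Of the 10 genes, 5 were higher in endfeet TRAP (Fzd4, Lrp5, Lrp6, Adgra2, Reck), 2 were lower (Wnt7b, Ndp) and 3 did not pass the test (Wnt7a, Tspan12, Axin2), in the quasi-likelihood test of edgeR at a Benjamini-Hochberg adjusted p of at most 0.05. Over all genes tested, 20.7% were higher, 13.9% lower and 34.6% either. With DESeq2 the members counted 5 higher and 1 lower, against 25.6%, 16.2% and 41.9% of its genes, and with limma voom 5 higher and 4 lower, against 27.2%, 31.1% and 58.3%. Within the library series that holds both groups they counted 5 higher and 1 lower, against 19.5%, 19.7% and 39.2%. The median log2 fold change was 1.94 for the 10 genes and 0.10 for all genes tested. Endfeet libraries lay entirely above the whole astrocyte libraries for 5 genes and entirely below for 2, against 18.9% and 23.8% of all genes tested. The 5 higher genes were higher under every one of 20 alternative analyses. Of the 19 alternatives that tested Wnt7b and Ndp, the call of Wnt7b was kept in 13 and that of Ndp in 9.

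**Figure D1:**
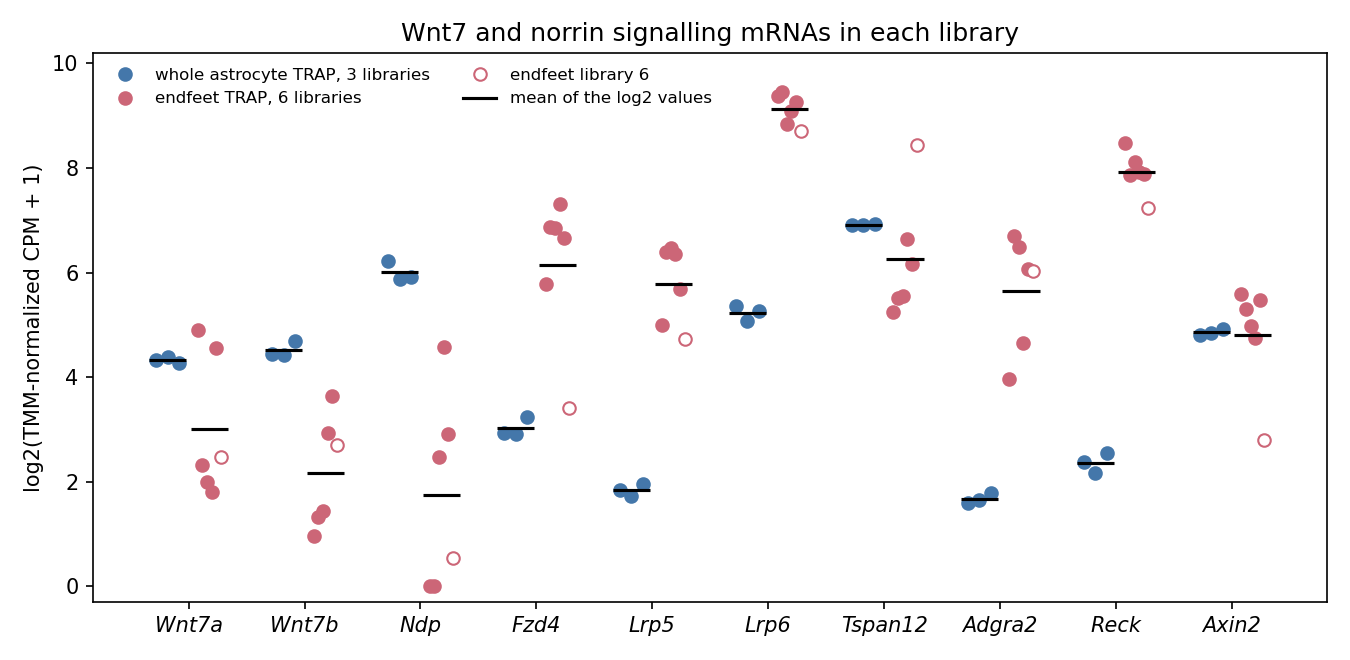
TMM-normalized CPM on a log2(CPM + 1) scale for each of the 10 genes, with a point per library (blue, 3 whole astrocyte TRAP libraries; red, 6 endfeet TRAP libraries, library 6 as an open circle) and a bar at the mean of the log2 values. Fzd4, Lrp5, Lrp6, Adgra2 and Reck lie above the whole astrocyte libraries in all 6 endfeet libraries, Wnt7b and Ndp lie below, and Wnt7a, Tspan12 and Axin2 overlap.

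**Figure D2:**
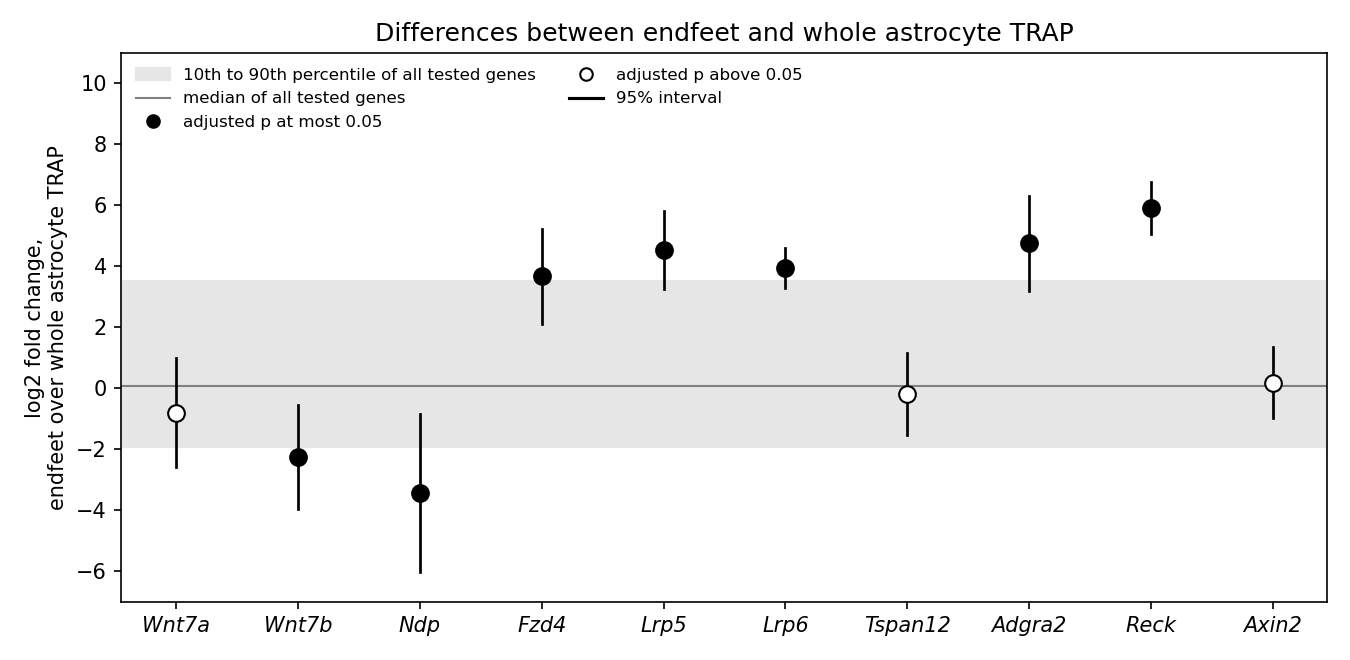
Log2 fold change of endfeet TRAP over whole astrocyte TRAP for each gene, with its 95% interval as a vertical line, filled where the adjusted p was at most 0.05. The grey band spans the 10th to 90th percentile of all tested genes (-1.93 to 3.52) and the grey line their median, and the 5 higher genes lie above the band.

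Ndp, on the minus strand of chromosome X (GRCm38, 16885521 to 16911774), had the highest level per kilobase of the ligands in whole astrocyte TRAP and was lower in endfeet TRAP. It was at 73.4, 57.9 and 59.7 CPM in libraries 1 to 3. In endfeet TRAP it ranged from 0 to 22.8 CPM with a median of 2.50 CPM, and all endfeet libraries lay below all whole astrocyte libraries. No read was counted in endfeet libraries 1 and 2, which allows up to 0.563 and 0.345 CPM, and library 6 held 1 count, while library 4 held 283 counts. Ndp fell by 3.44 ± 1.20 (SE) on the log2 scale, with a 95% interval of -6.02 to -0.85 and an adjusted p of 0.0409. The adjusted p was 0.0947 with DESeq2, 0.0506 within the library series that holds both groups, and 0.0529 without endfeet library 6. With the series as a covariate it was 0.164, and with counts summed over transcripts 0.0641. The call was also lost without endfeet library 3 or 5 or any whole astrocyte library, with adjusted p of 0.061 to 0.116.

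The 250 bases before the RefSeq start are shown for a gene of each kind of result, a ligand that was lower (Ndp), a receptor partner that was higher (Reck) and the target gene that did not pass the test (Axin2). Each is given 5′ to 3′ on the gene's own strand from RefSeq on GRCm38.p6, at chrX:16911775-16912024 (minus), chr4:43875280-43875529 (plus) and chr11:108920099-108920348 (plus), with capitals marking the letters CTTTG or their reverse complement CAAAG, the core of the site bound by the TCF/LEF factors of this pathway.
Ndp: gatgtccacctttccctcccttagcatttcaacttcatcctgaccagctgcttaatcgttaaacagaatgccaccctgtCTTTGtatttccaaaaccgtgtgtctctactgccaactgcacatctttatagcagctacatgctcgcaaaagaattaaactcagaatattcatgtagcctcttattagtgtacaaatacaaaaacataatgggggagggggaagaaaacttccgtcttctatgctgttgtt
Reck: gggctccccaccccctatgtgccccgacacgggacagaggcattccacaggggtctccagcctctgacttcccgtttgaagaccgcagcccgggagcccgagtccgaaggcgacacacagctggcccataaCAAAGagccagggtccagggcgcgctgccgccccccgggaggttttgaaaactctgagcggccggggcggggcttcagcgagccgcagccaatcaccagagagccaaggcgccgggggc
Axin2: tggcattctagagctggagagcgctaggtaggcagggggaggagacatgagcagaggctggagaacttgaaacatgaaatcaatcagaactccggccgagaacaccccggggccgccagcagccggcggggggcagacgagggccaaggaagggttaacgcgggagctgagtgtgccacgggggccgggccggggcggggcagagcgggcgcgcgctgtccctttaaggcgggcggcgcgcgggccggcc
Such windows were found for 6 of the 10 genes (also Wnt7a, Fzd4 and Tspan12). The core was in 3 of the 6 (Ndp, Reck and Tspan12, 1 match each), against 48.6% of 32851 RefSeq windows of the same length. The longer CTTTGA, in either direction, was in none of the 6 and in 13.8% of the windows. A match is only a match of letters, and its absence from a window says nothing of the factors.

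Wnt7b lies on the minus strand of chromosome 15 (85535437 to 85582473). Its level was 20.6, 20.5 and 24.9 CPM in whole astrocyte TRAP and 0.938 to 11.5 CPM in endfeet TRAP, with a median of 3.60 CPM. All endfeet libraries were below all whole astrocyte libraries, and the lowest were libraries 1 to 3, at 0.938, 1.49 and 1.71 CPM. For Wnt7b the log2 fold change was -2.25 ± 0.78 (SE; 95% interval -3.94 to -0.55; adjusted p = 0.0410). Within the library series that holds both groups it was -1.60 (adjusted p = 0.0333), and with the series as a covariate it was -1.47 (adjusted p = 0.130). The call was lost without any one whole astrocyte library (adjusted p = 0.113 to 0.140) and without endfeet library 2 or 3 (adjusted p = 0.0787 and 0.0756). An antisense gene, AU022754, shares 38 bp of exon with Wnt7b, and the amplification kit did not keep strand.

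Wnt7a, the closest relative of Wnt7b, lies on the minus strand of chromosome 6 (91363981 to 91411363) and gave no call. Its level was 18.9, 19.9 and 18.2 CPM in whole astrocyte TRAP and 2.50 to 29.1 CPM in endfeet TRAP, with a median of 4.29 CPM. Endfeet libraries 1 and 5 were above all whole astrocyte libraries, at 29.1 and 22.4 CPM, and the other 4 were below them. The log2 fold change was -0.80 ± 0.83 (SE; 95% interval -2.59 to 0.99; adjusted p = 0.485). With limma voom and a weight for each group the adjusted p was 0.0272 at -1.56. Without endfeet library 1 the log2 fold change was -1.35 (adjusted p = 0.169), and without library 5 it was -1.25 (adjusted p = 0.291).

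Ratios between members were taken within each library, as log2 of counts with 0.5 added. For Ndp over Wnt7a the log2 ratio was 1.74 ± 0.21 (SD, n = 3) in whole astrocyte TRAP and 0.61, 3.17 and -1.78 in endfeet libraries 3, 4 and 5, so that the groups overlapped. In endfeet libraries 1 and 2, without a read of Ndp, and in library 6, with 1 count, the ratio is set by the added 0.5 and the depth, and no value is given. Over all 9 libraries the difference between groups was -4.28 with 0.5 added and -3.89 with 1 added, neither of which is a measured size, and it did not pass a two-sided exact permutation test over 84 splits (p = 0.167, adjusted over 3 ratios 0.405; the smallest p possible was 0.0119). For Wnt7a over Wnt7b the log2 ratio was -0.21 ± 0.22 against 1.05 ± 2.10, a difference of 1.26 by the same exact test (p = 0.405, adjusted 0.405), which was 0.50 without endfeet library 1 and -0.021 within the library series that holds both groups.

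Fzd4, the Frizzled receptor that binds norrin and also Wnt ligands, lies on the plus strand of chromosome 7 (89404355 to 89413134). It was at 6.65, 6.54 and 8.45 CPM in whole astrocyte TRAP and at 9.59 to 158 CPM in endfeet TRAP, with a median of 107.6 CPM. Library 6 was the lowest, 1.14 times the highest whole astrocyte library, and the other 5 endfeet libraries were at 54.0 CPM or more. Fzd4 rose by 3.68 ± 0.72 on the log2 scale (SE; adjusted p = 0.00157), 12.8-fold higher, and it was 3.32 to 3.92 when single libraries were left out.

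The co-receptors Lrp5 (chromosome 19, 3584828 to 3686564, minus strand) and Lrp6 (chromosome 6, 134446476 to 134566965, minus strand) were both higher. Lrp5 was at 2.57, 2.30 and 2.90 CPM in whole astrocyte TRAP and at 25.6 to 87.7 CPM, median 65.6 CPM, in endfeet TRAP, and its groups did not overlap. Its log2 fold change was 4.53 ± 0.60 (SE; adjusted p = 7.89e-05), 23.1-fold. Lrp6 was at 40.1, 32.8 and 37.5 CPM and at 415 to 703 CPM, median 579 CPM, and its groups did not overlap. Its log2 fold change was 3.94 ± 0.30 (SE; adjusted p = 9.21e-07), 15.4-fold, with the smallest relative spread among endfeet libraries (SD over mean 0.202). The log2 ratio of Lrp5 to Lrp6 was -3.82 ± 0.13 (SD, n = 3) in whole astrocyte TRAP and -3.37 ± 0.77 (SD, n = 6) in endfeet TRAP, a difference of 0.45 (exact permutation p = 0.369, adjusted 0.405).

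Reck, a membrane-anchored protein that recognises Wnt7 ligands, had the largest change of the 10 genes. It lies on the plus strand of chromosome 4 (43875530 to 43944806) and its upstream window is printed above. It was at 4.16, 3.47 and 4.83 CPM in whole astrocyte TRAP and at 149 to 354 CPM in endfeet TRAP, with a median of 239 CPM. All endfeet libraries were above the whole astrocyte libraries, and the lowest was library 6. Reck rose by 5.90 ± 0.40 on the log2 scale (SE; 95% interval 5.05 to 6.76; adjusted p = 3.51e-07), 59.8-fold.

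Adgra2, the adhesion receptor that acts with Reck, lies on the plus strand of chromosome 8 (27085583 to 27123436). It was at 2.00, 2.14 and 2.46 CPM in whole astrocyte TRAP and at 14.6 to 103 CPM in endfeet TRAP, with a median of 65.0 CPM. The groups did not overlap, and endfeet libraries 1 and 4 were the lowest, at 14.6 and 24.2 CPM. The log2 fold change was 4.77 ± 0.72 (SE; adjusted p = 2.35e-04), 27.3-fold. Adgra2 shares 73 bp of exon with Brf2 on the other strand. Brf2 held 77, 81 and 122 counts in whole astrocyte TRAP, where Adgra2 held 74, 81 and 112. In the endfeet libraries Brf2 held 6 to 136 counts and Adgra2 78 to 1357. The part of this overlap in the Adgra2 counts was not tested.

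Tspan12, the tetraspanin that assists norrin at Fzd4, lies on the minus strand of chromosome 6 (21771395 to 21852515). It was at 120.04, 119.6 and 120.4 CPM in whole astrocyte TRAP and at 36.8 to 348 CPM in endfeet TRAP, with a median of 58.4 CPM. Library 6 was the only endfeet library above the whole astrocyte libraries and the other 5, at 36.8 to 98.5 CPM, were below them. The log2 fold change was -0.17 ± 0.62 (SE; 95% interval -1.51 to 1.18; adjusted p = 0.856), and without library 6 it was -1.01 (adjusted p = 0.0324). Within the library series that holds both groups it was 0.39 (adjusted p = 0.610). An antisense gene, Gm30270, shares 98 bp of exon with Tspan12.

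Axin2, a negative regulator that is itself switched on by the pathway, lies on the plus strand of chromosome 11 (108920349 to 108950783) and showed no call under any alternative. It was at 27.0, 27.6 and 29.4 CPM in whole astrocyte TRAP and at 5.94 to 47.3 CPM in endfeet TRAP, with a median of 34.5 CPM. Library 6 was the lowest and 4 endfeet libraries were above all whole astrocyte libraries. The log2 fold change was 0.19 ± 0.55 (SE; 95% interval -0.98 to 1.37; adjusted p = 0.812). The antisense gene Gm11670 shares 207 bp of exon with it.

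Levels were compared between genes as CPM per kilobase of the chosen transcript. In whole astrocyte TRAP the order began with Tspan12 (48.2 ± 0.153 CPM per kb, SD, n = 3) and Ndp (32.8 ± 4.39), followed by Wnt7b (7.02 ± 0.809), Axin2 (6.57 ± 0.298) and Wnt7a (5.99 ± 0.262), and Lrp5 was last (0.291 ± 0.0335). For Lrp5 a coding transcript of 5161 bp held the same 95, 87 and 132 counts as the chosen one of 8893 bp. The place of Lrp5 in either order therefore depends on the choice of transcript. Wnt7b and Axin2, and Fzd4 and Reck, differed by less than the larger SD of the pair. In endfeet TRAP the order began with Lrp6 (60.5 ± 12.2 CPM per kb, SD, n = 6), Reck (56.1 ± 15.0) and Tspan12 (43.1 ± 48.1), and ended with Wnt7a (3.44 ± 3.69), Ndp (2.94 ± 4.53) and Wnt7b (1.47 ± 1.31). There, each of the 9 steps between neighbours was within the larger SD. With counts summed over transcripts, 7 of the 20 values stayed within their spread, and the endfeet order began with Reck (107), Tspan12 (91.9) and Lrp6 (65.0). Ndp and Fzd4 had 1 counted transcript each, so their values could not change. Such a sum counts a read again for each transcript it overlaps, so this order also depends on the transcripts annotated for a gene.

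Reads were counted on every transcript they overlapped, so a shorter transcript of a gene shows in which stretch of the mRNA its counts lay. For Axin2, a processed transcript that covers positions 2251 to 4260 of the chosen 4260 bp held 65.4% to 68.8% of its counts in whole astrocyte TRAP. In endfeet TRAP it held 22.6% in library 1 (Wilson 95% interval 17.9 to 28.2) and 98.4% in library 4 (96.4 to 99.3). For Lrp5, a transcript of 2835 bp covers 31.9% of the chosen length of 8893 bp, in parts between positions 2408 and 8888. The coding transcript of 5161 bp held 100% of the counts of the chosen one in whole astrocyte TRAP and 91.1% to 100% in endfeet TRAP. Few counts thus lay outside it, and 2835 bp is a larger part of the length that held counts than 31.9%. The transcript of 2835 bp held 68.9% to 79.3% of the counts in whole astrocyte TRAP and 43.4% to 98.4% in endfeet TRAP. For Wnt7a, a transcript of 297 bp in the last part held 14.5% to 19.7% in whole astrocyte TRAP and 74.2% (56.8 to 86.3) of the 31 counts of endfeet library 4. The shares in endfeet libraries thus spread more widely than in whole astrocyte libraries, and intervals cover counting error only.

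**Figure D3:**
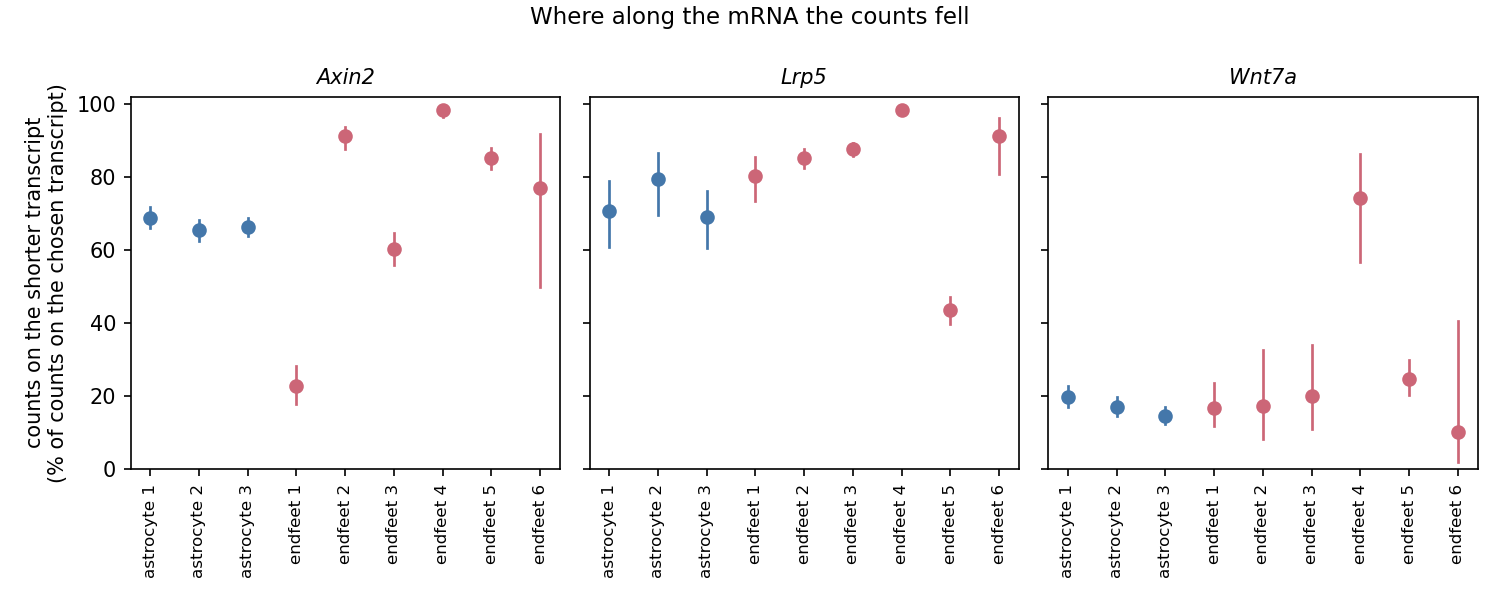
Counts on a shorter transcript as a percentage of the counts on the chosen transcript of Axin2, Lrp5 and Wnt7a, with a point per library (blue, whole astrocyte TRAP; red, endfeet TRAP) and its Wilson 95% interval as a line. For Axin2 the whole astrocyte libraries sit between 65.4% and 68.8% and the endfeet libraries between 22.6% and 98.4%.

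Other genes of the pathway were taken from 9 lists with 103 genes outside the 10, of which 87 were tested, 39 were higher in endfeet TRAP and 5 lower. The counts of each list below stand beside 20.7% higher and 13.9% lower over all genes tested. Of the 32 named genes of these lists, 19 kept their call under every alternative that tested them and none changed direction. Of 17 other Wnt ligands, 7 were tested and 5 were higher, with a median log2 fold change of 3.51 for the tested genes against 0.10 for all genes. Wnt5a, which often signals without β-catenin, rose from 8.03 ± 0.452 to 126 ± 52.1 CPM (SD; log2 fold change 3.98, adjusted p = 1.24e-04). Wnt4 (3.43), Wnt6 (4.84) and Wnt9a (3.51) also rose, although Wnt9a was 0.42 (adjusted p = 0.678) and Wnt6 2.83 (adjusted p = 0.0603) within the library series that holds both groups. Both calls were also lost without any one whole astrocyte library (adjusted p = 0.104 to 0.155 and 0.0579 to 0.0668), and that of Wnt9a without endfeet library 1 (2.22, adjusted p = 0.0908), 2 or 3.

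Of the 9 other Frizzled receptors, 4 were higher and 5 did not pass, with a median of 1.46. Fzd6 rose from 2.84 ± 0.429 to 196 ± 29.5 CPM (6.10, adjusted p = 1.66e-07), Fzd7 by 2.86, Fzd5 by 2.51 and Fzd3 by 1.46 on the log2 scale. The calls of Fzd5 and Fzd3 were lost without any one whole astrocyte library (adjusted p = 0.109 to 0.140 and 0.0641 to 0.0945) and without endfeet library 4 (0.0625 and 0.0587). That of Fzd5 was also lost without endfeet library 2 or 5, with the series as a covariate (adjusted p = 0.0957) and with the replicate number as a block (1.84, adjusted p = 0.179). Among 9 tested receptors of other kinds, 4 were higher (Lrp4 2.97, Ryk 1.14, Ror1 3.58, Ptk7 3.46). Ptk7 lost its call within the library series that holds both groups (adjusted p = 0.0512), with the series as a covariate, without endfeet library 3 (0.0591) and without any one whole astrocyte library (0.0685 to 0.143). Ryk lost it without whole astrocyte library 2 or 3 (0.0719 and 0.0620), and Ror1 without whole astrocyte library 1 (0.0557). Of 10 tested secreted antagonists, 5 were higher, among them Sfrp1 (2.96), Dkk2 (7.34), Wif1 (4.28) and Sostdc1 (5.50). Sfrp1 was at 1.76 (adjusted p = 0.126) within the library series that holds both groups, and its call was lost without whole astrocyte library 1 or 2 (0.0524 and 0.0588). Wif1 lost its call without any one whole astrocyte library (0.0877 to 0.119). Sostdc1 was highest in endfeet library 1, at 565 CPM, the library with the highest choroid plexus marker sum, whose part was not tested. Wls, which carries Wnt proteins to the cell surface, was the 1 higher gene of 5 tested in Wnt secretion (2.44).

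In the cytoplasmic relay 4 of 17 genes were higher and 2 lower, close to the 20.7% and 13.9% of all genes tested, with a median of -0.42. Ctnnb1, which encodes β-catenin, rose from 590 ± 42.7 to 1516 ± 197 CPM (1.36, adjusted p = 5.69e-04) and Apc, of the complex that destroys it, by 1.77. The kinase genes Gsk3b (-0.78) and Csnk1a1 (-0.77) were lower, and both calls were lost with the series as a covariate (adjusted p = 0.111 and 0.134), after thinning (0.0611 and 0.0919), without any one whole astrocyte library (0.0807 to 0.161) and without endfeet library 2 (0.0722 and 0.0702). Csnk1a1 also lost its call without endfeet library 3 (0.05001), and Gsk3b with summed transcripts (0.112). Among 12 nuclear factors 2 were higher and 3 lower. Tcf7 (3.74) and Lef1 (2.69) were higher, and Tcf7l2 (-2.05) and the co-repressor gene Tle4 (-1.24) were lower, the latter not without any one whole astrocyte library (adjusted p = 0.0507 to 0.0753). Tcf7l2 was at 177, 176 and 155 CPM in whole astrocyte TRAP and at 22.0 to 58.1 CPM in endfeet TRAP.

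Of 12 tested target genes other than Axin2, 9 were higher, none was lower and 3 did not pass, with a median of 2.15. Lef1, Tcf7, Notum and Lgr5 of this list also belong to a list above, so the counts of the lists overlap. Apcdd1, an inhibitor induced by the pathway, was at 1.16, 1.24 and 2.52 CPM in whole astrocyte TRAP and at 114 to 196 CPM in endfeet TRAP (6.47, adjusted p = 7.07e-07). Tnfrsf19 (2.05) and Znrf3 (1.83, adjusted p = 0.0681 without whole astrocyte library 2) rose, as did Nkd1, Nkd2, Notum and Myc, which were named after their values were seen. Calls of the latter genes were not followed singly through the alternatives. Notum held 4 counts in each of endfeet libraries 1 and 4, and Nkd2 12 counts in library 6. Myc was at 11.1 CPM in endfeet library 5, against 7.62 to 7.83 CPM in whole astrocyte TRAP. Of 10 endothelial genes listed for a link to the barrier, whether or not they build it, 8 were higher with a median of 5.26. The claudin gene Cldn5 was at 0.784, 0.344 and 0.132 CPM in whole astrocyte TRAP and at 107 to 539 CPM in endfeet TRAP (9.32), and the glucose transporter gene Slc2a1 rose from 44.9 ± 5.97 to 1049 ± 82.7 CPM (4.54). Mfsd2a and Plvap did not pass (0.05 and -0.63). Endothelial marker sums moved with these genes, as given above, and their part was not tested.

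**Figure D4:**
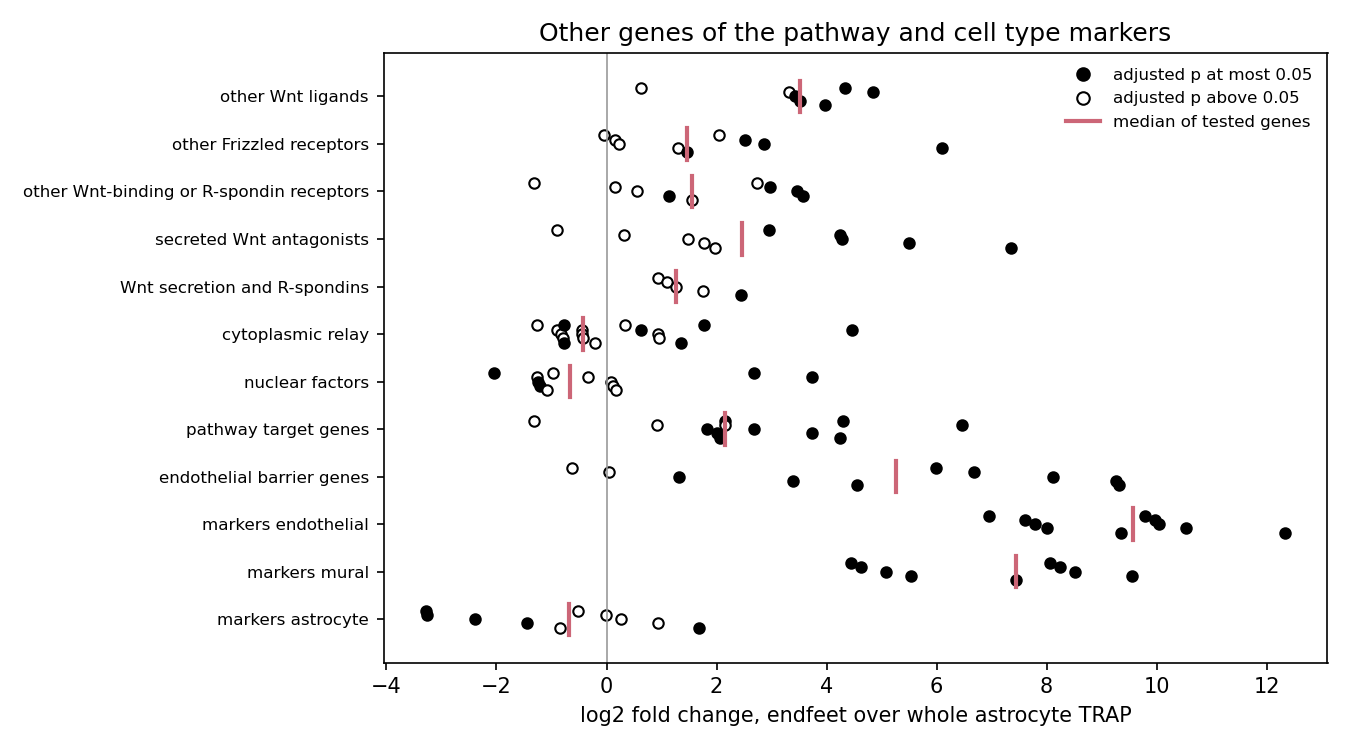
Log2 fold change of endfeet TRAP over whole astrocyte TRAP for each tested gene of the 9 pathway lists and of the endothelial, mural and astrocyte marker lists, filled where the adjusted p was at most 0.05, with a red bar at the list's median. Medians run from -0.65 for nuclear factors to 5.26 for endothelial barrier genes, and are 9.57 for endothelial, 7.44 for mural and -0.69 for astrocyte markers.

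The genes whose log2(CPM + 1) over the 9 libraries was most like that of a member are given as a description, without a test. They were Spdya (Pearson r = 0.995), Oard1 (0.990) and Psmd7 (0.985) for Ndp, Vav3 (0.975), Dstn (0.959) and Gm4924 (0.949) for Wnt7a, and Git2 (0.991), Gusb (0.990) and Os9 (0.984) for Fzd4. The 9 libraries hold both groups, so the difference between groups enters these values. Within the 6 endfeet libraries, Tspan12 ran against Axin2 (r = -0.937) and Reck (-0.900), with library 6 the highest for Tspan12 and the lowest for both others.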

How the data were processed

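RNA-seq libraries of polysomal RNA comprised 3 of whole astrocyte TRAP and 6 of endfeet TRAP. The authors amplified the RNA with a kit that does not keep strand, aligned the reads to mm10 with Bowtie, removed reads with several alignments and counted with HTSeq. The authors deposited raw, unpooled counts per Ensembl transcript, 75466 in each library, without normalization. Of these, 73164 were matched to GENCODE M21 on the same build (22092 genes), and 2302 were left out. For each gene the 1 transcript whose CPM, added up over the libraries, was largest stood for the gene. For Lrp5 this was a nonsense-mediated decay model of 8893 bp, and the coding transcript has 5161 bp, so its value per kilobase depends on that choice.

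Groups were compared with edgeR 4.0.16 (TMM, filterByExpr, glmQLFit, glmQLFTest) in R 4.3.3, Benjamini-Hochberg adjusted over all 14427 genes, threshold 0.05. CPM are TMM-normalized. SE is the log2 fold change over the square root of F. Log2 ratios used counts + 0.5. P-values measure the spread between libraries. The smallest amount taken as detectable was 3 counts, and intervals of shares are at 95%. The pipeline was tested on simulated data. DESeq2 1.42.0, limma 3.58.1, other filters, the library series, summed transcripts, thinning, the replicate number as a block and single libraries left out were alternatives. Python 3.11.15, numpy 2.4.6, pandas 2.3.3 and matplotlib 3.10.9 were used.

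The members and lists were chosen with earlier results of these data known. Named genes are the 10 members, from each pathway list up to 4 called genes with the highest CPM, the 2 most counted genes of a marker list where discussed, and the 3 genes most like Ndp, Wnt7a and Fzd4.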

Additional observations from a re-analysis of the deposited data

Results flagged for a closer look

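In 74 tests of single libraries among the 6 endfeet libraries, on log2(CPM + 1), 4 values stood apart from the rest of their group, and chance flags about 1 in 20. Axin2 was at 5.94 CPM in endfeet library 6, with the next library at 25.8 CPM. Wnt5a was at 27.0 CPM in library 6, next 128.9 CPM. Os9, one of the genes most like Fzd4, was at 16.4 CPM in library 6, next 55.0 CPM. Tcf7 was at 7.69 CPM in library 1, next 71.2 CPM. Library 6 was the smallest, with 2319495 counts.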

How the results depend on the processing

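The number of members higher in endfeet TRAP was 5 under every alternative, and the number lower, 2 as reported, was 1 with DESeq2, 1 with summed transcripts, 1 within the library series that holds both groups, 0 with the series as a covariate, 0 with at least 10 counts in every library (a filter that removes Wnt7b and Ndp), 4 with limma voom, and 0 to 2 when single libraries were left out. Among all genes, 4485 were lower with limma voom against 2006, and leaving out libraries gave 1874 to 3380 higher and 1171 to 2642 lower. Among the other pathway genes, leaving out libraries gave 24 to 43 higher and 1 to 8 lower, and the number lower, 5 as reported, was 8 without a filter, 8 with at least 10 counts in every library, 8 within the series, 15 with limma voom and 2 after thinning. The ratio of Wnt7a to Wnt7b reversed to -0.021 within the series. Tspan12 reversed to 0.52 with the series as a covariate, 0.39 within the series and 0.068 without endfeet library 2 (-1.01 to 0.068 over single libraries left out), and Axin2 to -0.14, -0.28 and, without endfeet library 5, -0.033 (-0.033 to 0.41 over single libraries left out). The causes were not tested. Deviations from the group mean had a mean correlation of 0.0153 between same-numbered libraries and -0.00295 between others. Only 3 pairs share a number, with correlations of -0.034 to 0.071, too few to tell whether the numbers pair the libraries. With the replicate number as a block, 2501 genes were higher and 1958 lower, 5 members were higher and 3 lower (Tspan12 at -1.51, adjusted p = 0.00756), and 36 other pathway genes were higher and 5 lower. The depth of endfeet library 6 limits low values, with 3 counts equal to 1.37 CPM.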
